A study of Arabidopsis thaliana with 12 samples.

Results

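The comparison described here set Arabidopsis thaliana roots that overexpress ERF115 directly against roots that overexpress ERF114, without passing through wild type. It used 6 of the 12 libraries of the series, chosen by their sample titles, and 23375 of the 37884 genes in the table, those whose average over all 12 libraries reached 10 normalized counts. The ERF115OX group held 3 libraries of plants labelled 35S:ERF115. The ERF114OX group held 3 libraries of plants labelled 35S:ERF114, whose genotype label also carries the line name ERF115OX in brackets, so the titles were followed. The WT group held 3 libraries of Col-0 and serves only as the level from which each line departs. All 3 groups were roots of seedlings aged 4 days, raised on half-strength Murashige and Skoog plates, with no treatment. The 35S promoter drives its transgene in most plant cells and at all stages, so neither line reports on the cells in which the factor is normally made, and the number of independent transformants behind each line is not given in the sources used here. The remaining genotype, which carries ERF115 fused to the SRDX repressor motif, entered only the estimate of the spread.

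ERF115 and ERF114 are closely related transcription factors of group X of the ethylene response factor family, which share an AP2 DNA-binding domain that recognises GC-rich elements such as the GCC box. ERF115 is known for its role in the replenishment of root stem cells after damage, where it acts with the GRAS protein PAT1 and activates the gene of the peptide hormone phytosulfokine. ERF114, also called EBE, is known from shoot branching and lateral root formation.

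Expression was measured by RNA sequencing of poly(A) RNA, and values are normalized counts, that is, reads per gene divided by 1 factor per library. The libraries of both lines held 47242114 to 48126651 reads on genes, and 3 reads, the level below which a gene cannot be told from absent, came to 2.9 to 3.18 normalized counts in a library. Replicates are separate samples by their titles, and nothing says whether they came from separate plates or pools, so the p-values speak only of how far these samples scatter, which may be technical. ERF114OX 1 stood apart in genes of green tissue. The 30 photosynthetic genes tested made up 0.854% to 1.17% of the counts of ERF115OX libraries, 0.371% of ERF114OX 1, 1.2% and 1.15% of ERF114OX 2 and 3, and 1.44% to 2.93% of WT libraries. Their mean log2 level was 13.42 ± 0.25 in ERF115OX and 13.20 ± 1.03 in ERF114OX (SD, n = 3 each; exact permutation p = 1.0, two-sided, the smallest possible being 0.1), and no member was at 0. Markers of stomata and shoot epidermis had a mean log2 level of 7.55 ± 0.48 in ERF115OX, 7.61 ± 0.58 in ERF114OX and 8.98 ± 0.30 in WT. Of their 21 members 0 to 5 were at 0 in a library of ERF115OX, 1 to 3 in a library of ERF114OX and none in WT. The stomatal regulator MUTE was at 0 in ERF115OX 3, ERF114OX 1 and ERF114OX 2. EPF2, another, was at 0 in ERF115OX 3 and ERF114OX 1 but had 12.4 normalized counts in ERF114OX 3. The mean log2 level of 5 seed storage genes was lower in every ERF115OX library (4.37 ± 0.35) than in any ERF114OX library (6.82 ± 1.36, exact permutation p = 0.1, the smallest possible). It was 7.82, 3.57 and 3.81 in WT 1, 2 and 3, so that WT libraries lay on both sides of the lines. Of the 5 genes 1 had a log2 difference above 0. The storage protein genes SESA1, SESA2 and SESA5 were at 0 in all 6 libraries of the lines. Root hair, Casparian strip and root cap lists, which mark cell types a root sample should hold, were expressed in all libraries and differed between the lines by 0.03, 0.06 and -0.11 in mean log2 level. With the level of the photosynthetic genes as a covariate, 1578 of the 1613 calls reported below (97.8%) were again called in the same direction, among 2048 in all (1419 higher and 629 lower in ERF115OX). The part of seed transcripts in the results was not tested. In whole roots, fewer cells of a type and less RNA per cell cannot be told apart.

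Both transgenes were seen at their labelled place. ERF115 (AT5G07310) had 34638, 38360 and 36973 normalized counts in ERF115OX, 2.9, 10.6 and 5.19 in ERF114OX, and 4.86, 23.4 and 561 in WT. Its level in ERF115OX was far above every other library, while WT 3 held most of the WT signal. ERF114 (AT5G61890) had 2.01, 92.5 and 104 normalized counts in ERF115OX, 44417, 47807 and 47330 in ERF114OX, and 35.0, 10.7 and 12.9 in WT. Counting per gene does not separate transgene from endogenous transcripts, so the log2 differences of 12.45 ± 1.14 for ERF115 and -10.55 ± 1.02 for ERF114 (± SE) describe the lines rather than the native genes. ERF114 was above all WT libraries in ERF115OX 2 and 3 and below them in ERF115OX 1.

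Of the 23375 genes tested, 1613 (6.90%) passed an adjusted p of 0.05 in limma's moderated test on log2(normalized count + 1), and such genes are said here to be called. In ERF115OX roots, 1116 genes (4.77%) were higher than in ERF114OX roots and 497 (2.13%) were lower. Counts of called list members below are to be read against the 6.90%, and no list or family was tested as a set. The differences were mostly small: the median log2 difference was 0.53 among the higher genes and -0.34 among the lower ones, and a log2 difference of at least 1 was reached by 249 of the first kind (1.07% of the genes tested) and 33 of the second (0.141%). In 1114 of the higher and 496 of the lower genes no ERF115OX library overlapped an ERF114OX library, a separation that 6001 of the genes tested showed whether called or not. The number of calls depended on single libraries. It was 600 without ERF115OX 2, 887 without ERF115OX 3, 841 without ERF114OX 2 and 922 without ERF114OX 3, while 414 higher and 96 lower genes were called in each of the 24 alternative analyses that tested them. All 1613 called genes kept their direction in every alternative that tested them.

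**Figure D1:**
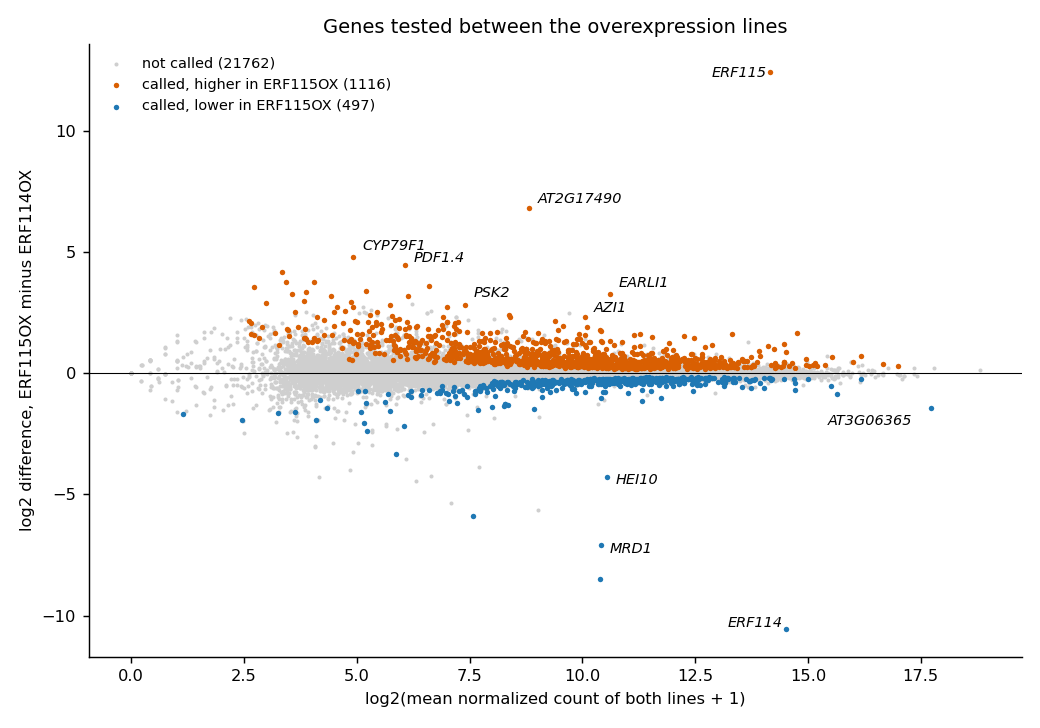
Each point is 1 of the 23375 genes tested, with the log2 of the mean normalized count of both lines plus 1 on the x axis and the log2 difference (ERF115OX minus ERF114OX) on the y axis; orange points are the 1116 genes called higher and blue points the 497 called lower in ERF115OX. The 2 transgenes lie at the far ends, and MRD1 and HEI10 lie far below 0. An absolute log2 difference of at least 1 is reached by 249 orange and 33 blue points.

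Genes for aliphatic glucosinolates, the methionine-derived defence compounds of the Brassicaceae, had the largest positive median difference of the lists and families examined; the 5 seed storage genes, none of them called, had a median of -2.28. Their synthesis runs in 3 stages: the side chain of methionine is lengthened in the chloroplast, the core structure is then built by cytochromes P450, transferases and sulfotransferases, and the side chain is finally oxidised. Of the 21 genes in the list 18 passed the filter on low values, and 14 of these were called higher and none lower in ERF115OX. Their median log2 difference was 1.37, against 0.0047 over all genes tested. Measured against WT on the same scale, the median was 0.21 in ERF115OX and -1.12 in ERF114OX, both taken from the same 3 WT libraries. By this median ERF114OX lay further from WT than ERF115OX did. Single members also lay outside the WT range in ERF115OX, such as BCAT4 and CYP83A1 above it and CYP79F1 below it.

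Chain elongation opens with BCAT4, the aminotransferase that turns methionine into its keto acid. BCAT4 had 1410, 1166 and 1009 normalized counts in ERF115OX, 205, 372 and 377 in ERF114OX, and 967, 812 and 603 in WT. The lines did not overlap, and the log2 difference was 1.95 ± 0.22 (SE; limma adjusted p = 0.00039). MAM1 and IMS2, neighbouring genes for methylthioalkylmalate synthases that add the carbon, were likewise higher in ERF115OX than in ERF114OX. MAM1 had 2052, 2067 and 2074 normalized counts in ERF115OX against 437, 686 and 708 in ERF114OX (1.79 ± 0.18, adjusted p = 0.00017), and its WT libraries held 2182, 1447 and 1727. IMS2, also known as MAM3, had 3791, 3700 and 3657 normalized counts in ERF115OX against 1360, 1156 and 1125 in ERF114OX (1.62 ± 0.13, adjusted p = 4.3e-05). The isomerase subunit genes IPMI1 and IPMI2 and the dehydrogenase gene IMD1 completed the cycle with log2 differences of 1.35, 1.39 and 1.13, and in each the ERF114OX libraries lay below all others. IMD3, a related dehydrogenase that mainly serves leucine synthesis, had 2165 ± 133 normalized counts in ERF115OX and 2327 ± 102 in ERF114OX (SD, n = 3 each) and was not called (log2 difference -0.10). BAT5, the chloroplast transporter of the keto acids, had 505 ± 36 normalized counts in ERF115OX and 367 ± 25.8 in ERF114OX and missed the threshold (0.46 ± 0.13, limma adjusted p = 0.055).

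The core structure begins with CYP79F1 and CYP79F2, adjacent genes for the cytochromes P450 that oxidise the elongated methionines. CYP79F1 had 50.4, 68.1 and 53.7 normalized counts in ERF115OX, 1.94, 2.12 and 0 in ERF114OX, and 88.5, 71.2 and 242 in WT. Each ERF114OX library thus held fewer than 3 reads of a gene that every other library of the 3 groups expressed, and the fitted log2 difference of 4.79 ± 0.59 (adjusted p = 0.00062) has little precision at its lower end. CYP79F2 had 1062, 934 and 990 normalized counts in ERF115OX against 307, 365 and 439 in ERF114OX (1.44 ± 0.18, adjusted p = 0.00060). CYP83A1, which takes the next oxidation, had 1589, 1456 and 1328 normalized counts in ERF115OX, 400, 547 and 482 in ERF114OX and 1250, 1014 and 842 in WT (1.62 ± 0.14, adjusted p = 6.0e-05). The sulfotransferase genes SOT18 and SOT17, which close the core, differed less, by 0.49 ± 0.09 and 0.34 ± 0.08 on the log2 scale. Among genes for side chain oxidation, FMO GS-OX3 had 102 ± 14.8 normalized counts in ERF115OX and 47.6 ± 1.89 in ERF114OX (1.07 ± 0.18, limma adjusted p = 0.0049). FMO GS-OX1 was higher in ERF115OX than in ERF114OX by 1.63 ± 0.40, and FMO GS-OX2 and AOP2 were not called. MYB28, the transcription factor that activates this pathway, had 818, 687 and 687 normalized counts in ERF115OX, 424, 382 and 408 in ERF114OX, and 1091, 827 and 760 in WT (0.85 ± 0.12, adjusted p = 0.0017). Its level in ERF114OX was below that of every other library of the 3 groups.

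In all alternatives 12 to 15 of the members were called, and 12 were called in every one. Without ERF114OX 1, the library that stood apart in green tissue genes, 14 were called and the median log2 difference was 1.07. SOT17 was lost without ERF114OX 3 or ERF115OX 3. FMO GS-OX1 was lost in 6 of 23 alternatives: without any 1 ERF115OX library, with only the lines fitted, with the replicate block and without the ERF115-SRDX genotype. The highest adjusted p was 0.12 for FMO GS-OX1, without ERF115OX 2, and 0.078 for SOT17, without ERF115OX 3.

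**Figure D2:**
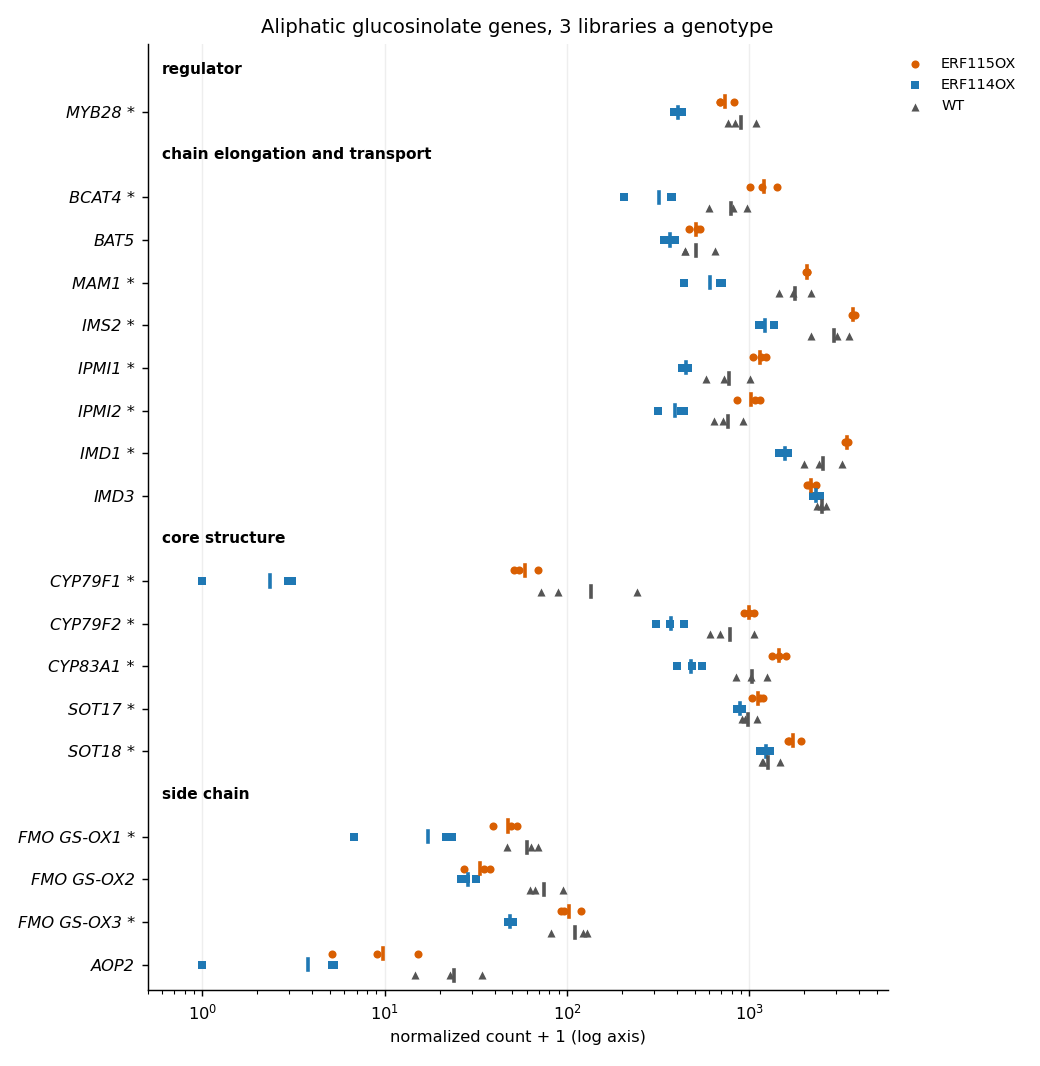
Each row is 1 of the 18 tested aliphatic glucosinolate genes and each symbol a library, with the normalized count plus 1 on a log axis; vertical ticks are means over 3 libraries and an asterisk marks the 14 genes called between the lines. Orange ERF115OX circles lie to the right of blue ERF114OX squares in the called rows and mostly among or near the grey WT triangles, while IMD3 and FMO GS-OX2 overlap.

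Indolic glucosinolates and the phytoalexin camalexin are made from tryptophan through the same kind of oxidations, and 6 of their 19 genes were called higher and 1 lower in ERF115OX, with a median log2 difference of 0.10. CYP83B1, the indolic counterpart of CYP83A1, had 18977, 21897 and 21283 normalized counts in ERF115OX against 16369, 16648 and 16458 in ERF114OX, a log2 difference of only 0.33 ± 0.06 (adjusted p = 0.0051). CYP71A12, which converts indole-3-acetaldoxime on the way to camalexin, had 470, 718 and 762 normalized counts in ERF115OX, 180, 183 and 217 in ERF114OX and 256, 430 and 729 in WT (1.72 ± 0.29, adjusted p = 0.0048). The methyltransferase genes of indolic glucosinolates did not all differ in the same direction. IGMT2 was higher in ERF115OX than in ERF114OX by 1.27 ± 0.10 (limma adjusted p = 4.3e-05) and IGMT5 by 0.34 ± 0.05. IGMT3 and IGMT4, the neighbours of IGMT2 among the genes tested, were called higher by 0.84 and 1.32. Of these genes only IGMT1 was lower, by 0.58 on the log2 scale. IGMT1 and IGMT2 are close copies, so that reads could be split between them. IGMT2 averaged 1439 normalized counts in ERF115OX, 592 in ERF114OX and 2013 in WT, whereas IGMT1 averaged 9520 in ERF115OX, 14168 in ERF114OX and 4007 in WT. The IGMT1 call was lost without ERF114OX 2 or 3 (adjusted p = 0.081 and 0.067).

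Among enzyme families that modify or conjugate small molecules, cytochromes P450 and glutathione transferases had 21.2% and 30.6% of their members called, mostly in one direction, while UDP-glycosyltransferases had 9.02% (7 higher and 4 lower of 122, median log2 difference -0.0060), against 6.90% of all genes. No test was made of these shares. Of 193 cytochrome P450 genes tested, 38 were higher and 3 lower in ERF115OX, and 18 were called in every alternative. With 1 library left out the counts were 19 and 0 without ERF115OX 2, 19 and 3 without ERF115OX 3 and 25 and 0 without ERF114OX 3. Besides the glucosinolate genes they included CYP71B13 with 227 ± 22.3 normalized counts in ERF115OX, 57.8 ± 12.3 in ERF114OX and 229 ± 43.7 in WT (1.97 ± 0.21, adjusted p = 0.00027). CYP72A8 had 501 ± 38 in ERF115OX, 276 ± 22 in ERF114OX and 910 ± 86 in WT, below WT in both lines but more so in ERF114OX. Among 36 glutathione transferase genes, 9 were higher and 2 lower, and 5 were called in every alternative, the counts being 5 and 1 without ERF115OX 2 and 6 and 1 without ERF114OX 2. GSTF6, induced by salicylic acid and pathogens, had 1844, 2322 and 2528 normalized counts in ERF115OX against 793, 863 and 979 in ERF114OX (1.34 ± 0.14, adjusted p = 0.00017), and WT held 1523, 2067 and 1978. GSTU20 had 1232 ± 91 normalized counts in ERF115OX, 538 ± 50 in ERF114OX and 1608 ± 343 in WT, and GSTU23 differed by 1.04 ± 0.10.

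Phytosulfokine is a small sulfated peptide that promotes cell division and growth; it is cut from precursors, sulfated by TPST and perceived by the receptor kinases PSKR1 and PSKR2. Of the 8 genes tested, 4 were called higher in ERF115OX and none lower. PSK2 stood out among the precursors. It had 295, 294 and 291 normalized counts in ERF115OX, 39.7, 46.6 and 36.3 in ERF114OX, and 128, 83.9 and 134 in WT, so that WT lay between the lines without overlap. Its log2 difference was 2.82 ± 0.20 (limma adjusted p = 2.1e-05). PSK5, a known direct target of ERF115, had 1251, 1418 and 1330 normalized counts in ERF115OX, 1065, 1052 and 1173 in ERF114OX, and 302, 294 and 274 in WT. Both lines were thus far above WT in PSK5 (log2 2.2 for ERF115OX and 1.92 for ERF114OX, over the same WT libraries), and the difference between them was 0.28 ± 0.08 (adjusted p = 0.045). PSK4 had 4204, 5792 and 4795 normalized counts in ERF115OX and 2790, 3800 and 3625 in ERF114OX (0.53 ± 0.15, adjusted p = 0.048), and the receptor gene PSKR1 differed by 0.26 ± 0.06. PSK1 had 1028 ± 29.6 normalized counts in ERF115OX, 991 ± 98 in ERF114OX and 552 ± 45.5 in WT, and the lines were not called apart. PSK3, PSKR2 and TPST were not called. PSK2 was called in every alternative, whereas PSK5 was lost in 16 and PSK4 in 11 of 24 alternatives, with adjusted p up to 0.20. PSKR1 was lost in 4, without ERF115OX 2, ERF115OX 3, ERF114OX 1 or ERF114OX 2. With 1 library left out, PSK2 alone was called without any of these 4, and 2 genes without ERF114OX 3, ERF115-SRDX 1, ERF115-SRDX 3 or WT 2.

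Of the other group X factors, Rap2.6L, which is induced by wounding and acts in tissue reunion, had 1573, 1458 and 1642 normalized counts in ERF115OX, 1307, 1083 and 1209 in ERF114OX and 1221, 1319 and 1389 in WT (0.38 ± 0.08, adjusted p = 0.015; 0.062 without ERF115OX 3 and likewise without ERF114OX 2). ERF112, RAP2.6, ABR1 and RRTF1, also known as ERF109, were not called, with log2 differences of -0.12, 0.10, 0.20 and 0.24. In a list of 15 wound and regeneration genes, PAT1 and SCL5, which encode GRAS proteins of the family that partners ERF115, were called higher by 0.19 ± 0.05 and 0.31 ± 0.06. Both calls were lost without ERF115OX 2 or 3 and when only the lines were fitted, and that of PAT1 also without any 1 ERF114OX library (adjusted p up to 0.093 for PAT1 and 0.073 for SCL5).

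**Figure D3:**
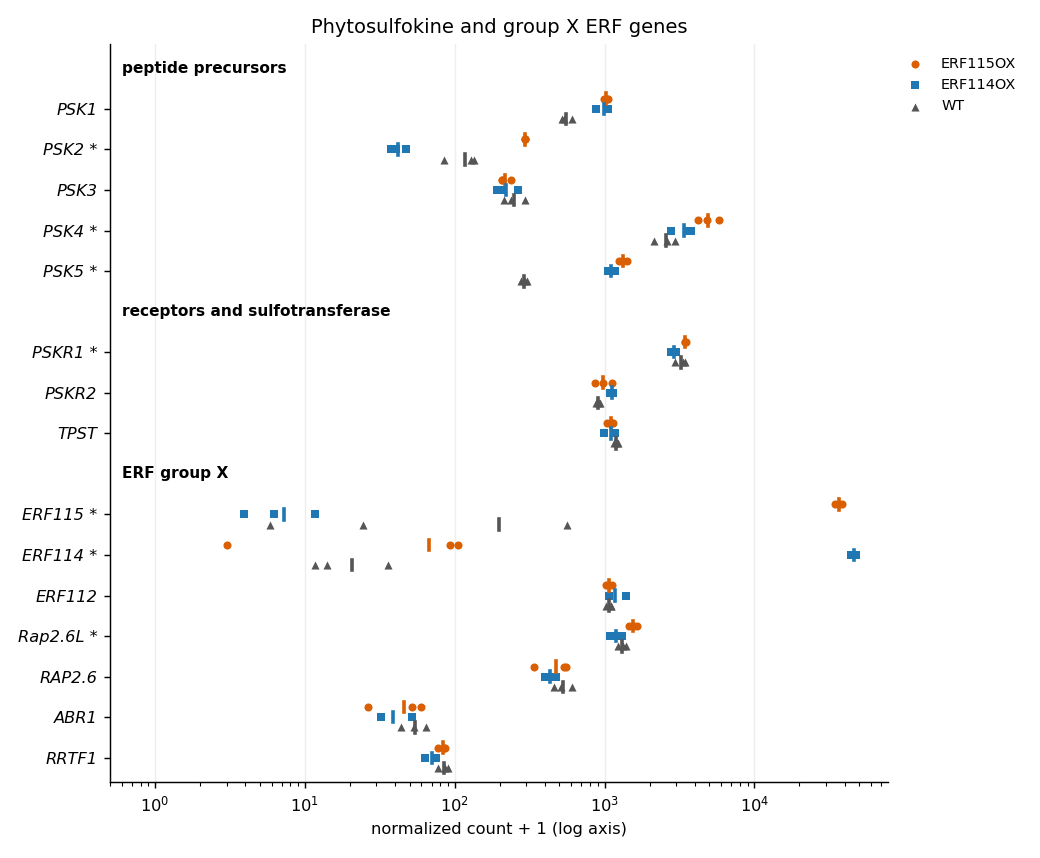
Each row is a phytosulfokine or group X ERF gene and each symbol a library, with the normalized count plus 1 on a log axis, ticks at the means over 3 libraries and an asterisk on genes called between the lines. In PSK2 the 3 genotypes are separate with WT in the middle, in PSK5 both lines lie right of WT, and the transgenes ERF115 and ERF114 are the outermost points.

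Promoter sequences are shown for CYP79F1 and PSK2, the members of the glucosinolate and phytosulfokine lists with the largest differences, and for DIR5, a named gene that holds one of the elements searched for. Each is the 250 bases before the annotated gene start in TAIR10.1 (the build behind the deposited counts is not given in the sources used here), 5′ to 3′ on the strand of the gene, from RefSeq, and capitals mark a match.
CYP79F1 (chr1:5608432-5608681, plus strand): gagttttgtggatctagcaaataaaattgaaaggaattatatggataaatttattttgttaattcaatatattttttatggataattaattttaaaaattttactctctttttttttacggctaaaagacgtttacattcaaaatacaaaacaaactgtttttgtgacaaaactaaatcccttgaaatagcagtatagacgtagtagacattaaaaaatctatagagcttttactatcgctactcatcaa
PSK2 (chr2:9737333-9737582, plus strand): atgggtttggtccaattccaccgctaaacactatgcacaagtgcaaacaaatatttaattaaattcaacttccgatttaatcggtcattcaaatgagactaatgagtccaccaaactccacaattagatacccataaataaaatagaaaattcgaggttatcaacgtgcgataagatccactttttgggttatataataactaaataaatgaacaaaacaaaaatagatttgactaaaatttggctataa
DIR5 (chr1:23813693-23813942, plus strand): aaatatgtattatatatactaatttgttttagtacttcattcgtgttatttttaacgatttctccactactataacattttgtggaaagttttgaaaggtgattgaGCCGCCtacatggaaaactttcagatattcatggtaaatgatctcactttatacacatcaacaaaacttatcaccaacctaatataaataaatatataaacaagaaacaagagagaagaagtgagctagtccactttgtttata
The motifs were the core of the GCC box, GCCGCC, and the core of the dehydration-responsive element, ACCGAC, each searched on both strands, and the 2 do not overlap each other in these windows. GCCGCC was found before 15 of the 1116 genes called higher in ERF115OX (1.34%), 10 of the 497 called lower (2.01%) and 476 of the 23374 genes with a full window (2.04%). ACCGAC was found before 4.84% of the higher genes, 4.43% of the lower genes and 4.97% of all. None of the 18 aliphatic glucosinolate genes and none of the 8 phytosulfokine genes held either motif in this window. These are matches of letters only, with no test.

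Auxin genes differed between the lines in both directions. Of 29 auxin response genes tested, 8 were higher and 1 was lower in ERF115OX, with a median log2 difference of 0.10. GH3.3, which conjugates auxin to amino acids and is quickly induced by it, had 1053, 1126 and 1175 normalized counts in ERF115OX, 651, 721 and 640 in ERF114OX and 1558, 1645 and 1523 in WT (0.74 ± 0.06, adjusted p = 4.9e-05). Both lines lay below WT without overlap, ERF114OX further. The auxin repressor gene IAA26 had 1438 ± 93.8 normalized counts in ERF115OX, 948 ± 73 in ERF114OX and 1219 ± 31.6 in WT (0.60 ± 0.07, adjusted p = 0.00037). The other higher members were GH3.5 and GH3.6 (listed as WES1 and DFL1; 0.45 and 0.59), IAA2, IAA4 (listed as ATAUX2-11), IAA7 and IAA16 (0.35, 0.24, 0.39 and 0.28). The lower member was GH3.2, listed as BRU6, with 1234 ± 145 normalized counts in ERF115OX, 1649 ± 131 in ERF114OX and 492 ± 50 in WT. Only GH3.3 and IAA26 were called in every alternative, and 5 and 4 members in all were called without ERF115OX 2 and without ERF115OX 3. PIN5, a carrier of the endoplasmic reticulum that sets the auxin level within the cell, had 341, 325 and 339 normalized counts in ERF115OX, 106, 101 and 105 in ERF114OX, and 222, 318 and 244 in WT (1.68 ± 0.13, adjusted p = 3.1e-05). AUX1, the influx carrier of root tips and hairs, went the other way with 8139, 7875 and 8425 normalized counts in ERF115OX, 9671, 10637 and 10502 in ERF114OX and 6787, 6765 and 6666 in WT (-0.33 ± 0.05, adjusted p = 0.0017). PIN5 and AUX1 were the only called members of 16 auxin transport genes, and both were called in every alternative. Of 17 genes for auxin synthesis, 4 were higher (TAR2, NIT1, CYP79B2 and CYP79B3, by 0.27 to 0.47) and 3, all YUCCA flavin monooxygenase genes of the last step, were lower. YUC7 had 6.04, 6.10 and 3.1 normalized counts in ERF115OX, 24.2, 14.8 and 13.5 in ERF114OX and 44.7, 48.8 and 89.6 in WT (-1.61 ± 0.37, adjusted p = 0.023), and YUC3 and YUC9 differed by -0.45 and -0.50. These 7 calls were weak: with 1 library left out, 1 higher and no lower gene was called without ERF114OX 1 and without ERF115OX 2, 1 and 1 without ERF114OX 3 and without ERF115OX 3, and 3 and 0 without ERF114OX 2.

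Cytokinin genes were called higher in 7 of 31 cases and lower in none, with a median log2 difference of 0.11. CKX2, which degrades cytokinin, had 30.2, 58.0 and 64.1 normalized counts in ERF115OX, 12.6, 2.12 and 8.30 in ERF114OX and 54.4, 66.3 and 70.7 in WT (2.75 ± 0.46, adjusted p = 0.0045). CYP735A1, which makes trans-zeatin forms, had 198, 231 and 194 normalized counts in ERF115OX, 104, 82.6 and 103 in ERF114OX and 156, 165 and 198 in WT (1.1 ± 0.14, adjusted p = 0.00097). LOG5, which releases the active base, differed by 1.34 ± 0.31, the primary response gene RR16 by 0.71 ± 0.19, and CKX3, CKX5 and CYP735A2 by 0.64, 0.22 and 0.51. CKX2 and CYP735A1 were called in every alternative. Without ERF115OX 3 only 2 of the 31 were called, 3 without ERF115OX 2, without any 1 of the ERF114OX libraries and without ERF115-SRDX 1 or 3, and 4 without WT 1. Among other hormones, the gibberellin 3-oxidase genes GA3OX1 and GA3OX2 make active gibberellin through their products. They were lower in ERF115OX than in ERF114OX by 0.64 and 0.68 on the log2 scale. GA3OX1 had 631, 729 and 741 normalized counts in ERF115OX, 1135, 1115 and 1013 in ERF114OX and 919, 837 and 730 in WT (adjusted p = 0.0017). The abscisic acid receptor gene PYL6 had 1102 ± 70.3 normalized counts in ERF115OX, 563 ± 67 in ERF114OX and 1429 ± 126 in WT (0.97 ± 0.10, limma adjusted p = 0.00024). EBF2, an F-box gene that limits ethylene signalling, was higher in ERF115OX than in ERF114OX by 0.60 ± 0.09 (limma adjusted p = 0.0022). Of 26 jasmonate genes tested 1 was called, which was lower in ERF115OX.

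Cell wall and growth genes also differed. XTH enzymes cut and rejoin xyloglucan in the growing wall, and 8 of 27 were higher and 1 lower in ERF115OX, with a median log2 difference of 0.28. XTH24 had 6800, 7430 and 7538 normalized counts in ERF115OX, 1803, 2871 and 2853 in ERF114OX and 6092, 6143 and 7136 in WT (1.56 ± 0.15, adjusted p = 0.00010). XTH31 had 4792 ± 173 normalized counts in ERF115OX, 3375 ± 171 in ERF114OX and 4599 ± 516 in WT. Both were called in every alternative, but the counts for the family were 3 higher and 2 lower without ERF114OX 1, 4 and 1 without ERF114OX 2 or 3, and 2 and 1 without ERF115OX 2 or 3. SAUR genes, small auxin-induced growth genes, were higher in 9 of 58 cases and lower in none. AT5G20820 of this family had 190, 207 and 192 normalized counts in ERF115OX, 48.4, 23.3 and 51.9 in ERF114OX and 81.7, 99.5 and 85.7 in WT (2.31 ± 0.37, adjusted p = 0.0034) and was the only member called in every alternative. SAUR22 differed by 2.55 ± 0.56. The SAUR counts were unstable, at 3, 5 and 3 without ERF114OX 1, 2 and 3, at 2 without ERF115OX 2 or 3, and at 14 and 18 without ERF115-SRDX 1 and 2. Class III peroxidases, secreted enzymes that stiffen or loosen the wall, were higher in 10 and lower in 5 of 64 cases, 6 and 3 without ERF115OX 2 or 3. AT5G64120 had 36395, 42797 and 46840 normalized counts in ERF115OX, 9837, 14772 and 15150 in ERF114OX and 26233, 31550 and 34449 in WT (1.68 ± 0.16, adjusted p = 9.5e-05), and its neighbour AT5G64110 differed by 1.3 ± 0.11. AT4G36430 was opposite, with 1949, 2398 and 2519 normalized counts in ERF115OX, 5044, 4397 and 4374 in ERF114OX and 911, 955 and 868 in WT (-1.01 ± 0.12, adjusted p = 0.00043). Here both lines lay above WT, ERF114OX the more so.

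Nutrient genes differed between the lines in part. Of 24 iron genes tested, 6 were higher and 1 lower in ERF115OX, with a median log2 difference of 0.27, and 4 of these were called in every alternative; without ERF115OX 2 or 3 the counts were 4 and 0. bHLH38 and bHLH39, transcription factors that switch on iron uptake, had 328 ± 36.5 and 1744 ± 153 normalized counts in ERF115OX, 170 ± 39.2 and 1118 ± 136 in ERF114OX, and 327 ± 66.9 and 1594 ± 206 in WT. OPT3, which loads iron into the phloem, had 5700, 5781 and 6208 normalized counts in ERF115OX, 3394, 4060 and 3955 in ERF114OX and 4803, 5748 and 5555 in WT (0.64 ± 0.09, adjusted p = 0.0016), and the nicotianamine synthase gene NAS4 differed by 0.47 ± 0.08. FRO2, the ferric reductase at the root surface, was lower with 2203 ± 252 normalized counts in ERF115OX, 2990 ± 251 in ERF114OX and 1179 ± 34 in WT (-0.44 ± 0.11, adjusted p = 0.030; lost without ERF114OX 1 or 3 or any 1 ERF115OX library, at up to 0.094). HMA2, which pumps zinc into the xylem, had 751, 776 and 816 normalized counts in ERF115OX, 218, 249 and 278 in ERF114OX and 609, 580 and 466 in WT (1.66 ± 0.12, adjusted p = 2.3e-05). Of 25 phosphate and nitrate genes 5 were higher and none lower, with 2 or 3 called without any 1 library of the lines other than ERF115OX 1 and without ERF115-SRDX 1 or 3. NRT1.8, which retrieves nitrate from the xylem, had 911, 744 and 803 normalized counts in ERF115OX, 228, 383 and 369 in ERF114OX and 325, 474 and 380 in WT (1.35 ± 0.28, adjusted p = 0.014). AMT2, an ammonium transporter gene, differed by 0.38 ± 0.07.

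Several genes for defence-related kinases and secreted proteins were called higher in ERF115OX. Of 27 cysteine-rich receptor kinase genes tested, 6 were higher and none lower, and 5 were called in every alternative. CRK18 had 201, 150 and 163 normalized counts in ERF115OX, 34.9, 64.6 and 51.9 in ERF114OX and 135, 108 and 155 in WT (1.78 ± 0.21, adjusted p = 0.00049), and CRK10 and CRK2 differed by 0.93 ± 0.12 and 0.44 ± 0.08. A run of 5 neighbouring genes on chromosome 4 was called as a block. It holds AZI1, a lipid transfer protein gene of systemic acquired resistance, with 1631, 1719 and 1970 normalized counts in ERF115OX, 429, 308 and 317 in ERF114OX and 1183, 1135 and 1203 in WT (2.34 ± 0.27, adjusted p = 0.00037). EARLI1, a close relative, had 2669, 2762 and 3016 normalized counts in ERF115OX, 396, 251 and 250 in ERF114OX and 2320, 1945 and 2098 in WT (3.26 ± 0.56, adjusted p = 0.0050). The other 3 genes, AT4G12490, AT4G12495 and AT4G12500, differed by 2.74, 3.19 and 1.24; they were named after their values were seen, except AT4G12495. AT4G12495 lies within AT4G12490 on the other strand in the TAIR10.1 annotation, so reads of the 2 may be shared. AT4G12500 broke the pattern against WT, with 808 ± 185 normalized counts in ERF115OX, 340 ± 61 in ERF114OX and 185 ± 26 in WT, and its call was lost without ERF115OX 2 or 3, ERF115-SRDX 3 or any 1 ERF114OX library (adjusted p up to 0.14). The defensin gene PDF1.4 had 102, 147 and 128 normalized counts in ERF115OX, 1.94, 4.24 and 10.4 in ERF114OX and 36.9, 21.5 and 19.9 in WT (4.49 ± 0.52, limma adjusted p = 0.00040). Its family did not follow it as a whole. Of 16 defensin genes tested 2 were higher and 0 lower (12.5%), and 7 had a log2 difference above 0. The median was -0.018, and members ran from -5.62 to 4.49. TI1, a trypsin inhibitor gene, had 3973, 4720 and 4488 normalized counts in ERF115OX, 1442, 1576 and 1620 in ERF114OX and 1998, 1934 and 1862 in WT (1.5 ± 0.08, adjusted p = 1.7e-06). Among transcription factors of stress, WRKY60 and WRKY48 were higher by 1.29 ± 0.12 and 1.04 ± 0.15, and EBP, a group VII ERF also called RAP2.3, had 1964 ± 104 normalized counts in ERF115OX, 820 ± 190 in ERF114OX and 2164 ± 393 in WT (1.28 ± 0.16, limma adjusted p = 0.00060). Of 58 WRKY genes 6 were higher and 0 lower (10.3%), and 2 were higher without ERF115OX 2. Of 84 ERF and DREB genes, both transgenes among them, 6 were higher and 3 lower (10.7%). All genes tested had 6.90% called.

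Root hair, suberin, transcription factor and immunity genes differed in a few members each. All genes tested had 6.90% called. Among these lists the shares were 11.5% for root hair, 13.3% for suberin, 14.3% for NAC, 15.0% for pattern-triggered immunity and 16.7% for expansins. Of 26 root hair genes tested 2 were higher and 1 was lower. RHS19, a root hair specific peroxidase gene, had 5239, 5925 and 6666 normalized counts in ERF115OX, 4071, 4194 and 4106 in ERF114OX and 2313, 2516 and 2794 in WT (0.52 ± 0.08, adjusted p = 0.0032). RHS13 behaved alike (0.43 ± 0.08), so that both lines lay above WT in these genes and ERF115OX further. RHD2, the NADPH oxidase gene needed for hair elongation, was lower by 0.25 on the log2 scale, a call lost without ERF114OX 3, ERF115OX 2 or ERF115OX 3. Without ERF114OX 1, 2 root hair genes were higher and 3 lower. CYP86A1, a fatty acid hydroxylase of suberin synthesis, had 11818, 15263 and 15496 normalized counts in ERF115OX, 9263, 10583 and 9689 in ERF114OX and 13197, 13485 and 13658 in WT (0.52 ± 0.11, adjusted p = 0.019), and the suberin exporter gene ABCG2 differed by 0.46 ± 0.09, these being the 2 called of 15 suberin genes. Only ABCG2 was called in every alternative, and 1 suberin gene was called without ERF114OX 1 or 3 or ERF115OX 2 and 4 without ERF115OX 1. Of 86 MYB genes tested 7 were higher and none lower, a share of 8.14% that is close to the 6.90% of all genes, and 4 were called without ERF115OX 3. MYB101 had 77.6, 36.6 and 41.3 normalized counts in ERF115OX, 8.71, 10.6 and 12.4 in ERF114OX and 25.3, 37.1 and 21.9 in WT (2.12 ± 0.31, adjusted p = 0.0020). Of 70 NAC genes 8 were higher and 2 lower, but only 3 and 1 without ERF114OX 2 or ERF115OX 2, and 4 and 2 without ERF114OX 3 or ERF115OX 3. Without ERF114OX 1 the NAC counts were 10 and 0. NAC048, called in every alternative, had 414, 421 and 407 normalized counts in ERF115OX, 223, 222 and 172 in ERF114OX and 148, 169 and 157 in WT (1.02 ± 0.13, adjusted p = 0.00072). Of 20 pattern-triggered immunity genes, BIK1, MPK3 and CERK1, all of them kinase genes, were higher by 0.31, 0.30 and 0.23. BIK1 was called in every alternative, while MPK3 was lost in 8 and CERK1 in 11 of 24, and 1 gene of the list was called without ERF114OX 1 or 3, ERF115OX 2 or 3 or ERF115-SRDX 1 or 3. Among expansins, which loosen the wall, EXPA1 and EXPB3 were higher by 0.63 and 0.48 and EXPA17 was lower by 0.44 on the log2 scale, 2 of 24 being called in each direction. None of these calls held in every alternative: without ERF114OX 1 no expansin was called higher and 2 lower, and without ERF114OX 2 or 3 or ERF115OX 2 or 3 none was called.

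**Figure D4:**
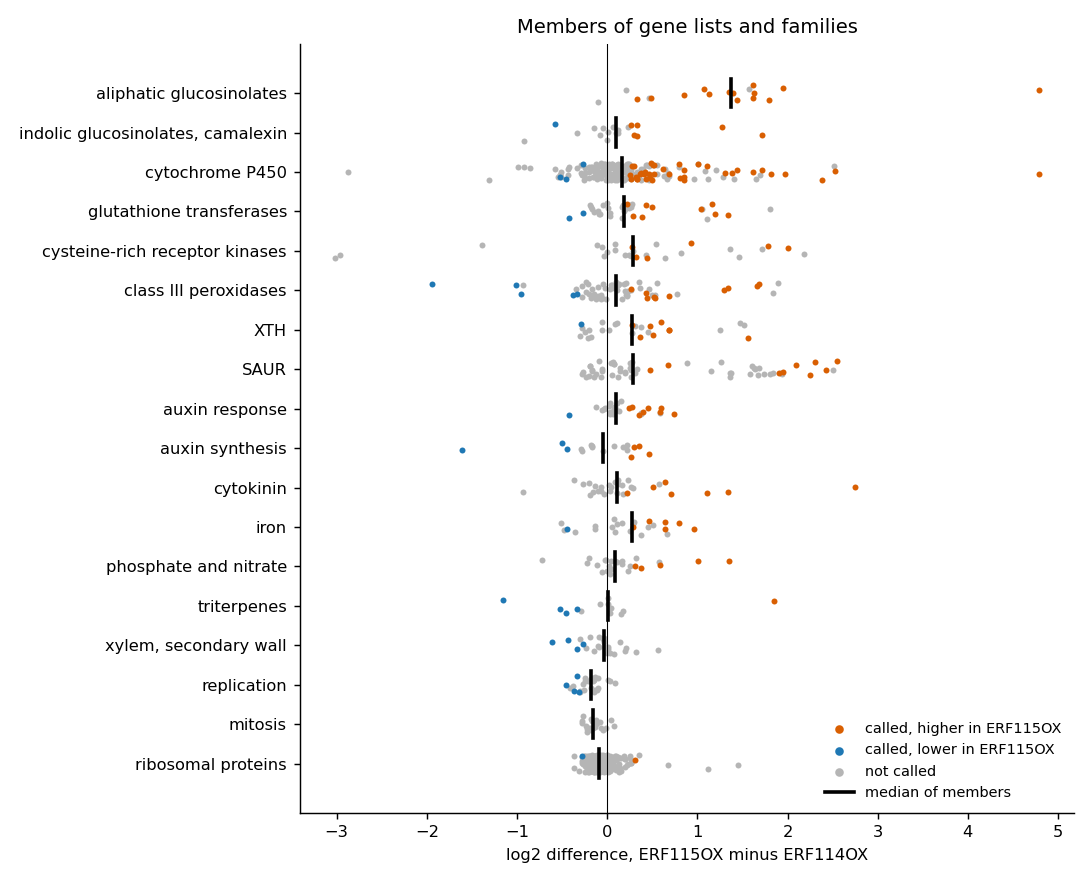
Each point is a tested member of 1 of 18 gene lists and families, placed by its log2 difference (ERF115OX minus ERF114OX); orange and blue points were called higher and lower in ERF115OX, grey points were not called and black bars are medians over the members. Of the aliphatic glucosinolate members 17 of 18 sit right of 0, around a median of 1.37, while the medians of the replication, mitosis and ribosomal lists lie left of 0, at -0.18, -0.16 and -0.09.

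The genes lower in ERF115OX, that is, higher in ERF114OX, included 4 of 13 triterpene genes, against 1 that was higher. MRN1, which makes marneral, had 1406, 1761 and 1592 normalized counts in ERF115OX, 3432, 3568 and 3529 in ERF114OX and 708, 855 and 868 in WT (-1.15 ± 0.11, adjusted p = 8.9e-05). Both lines lay above WT, and the lines did not overlap. CYP71A16 and CYP705A12, which stand beside MRN1 in its gene cluster, and PEN1, another triterpene synthase gene, differed by -0.46, -0.53 and -0.33. MRN1 alone of the list was called in every alternative, and without any 1 library of either line, or without ERF115-SRDX 3, no more than 3 of the list were called. Genes of xylem and secondary wall were lower in 4 of 25 cases and higher in none. They were the laccase genes IRX12 and LAC11, whose products polymerise lignin, the regulator NAC073 and TED7. IRX12 had 2769, 2678 and 2992 normalized counts in ERF115OX, 3629, 3577 and 3467 in ERF114OX and 2965, 3183 and 2782 in WT (-0.34 ± 0.06, adjusted p = 0.0047) and was the member called in every alternative, only 1 being called without ERF114OX 1 or 2, and 2 without ERF115OX 2. PXY, the receptor kinase gene that keeps the procambium dividing, had 2078 ± 53.8 normalized counts in ERF115OX, 2564 ± 76.9 in ERF114OX and 1653 ± 72.0 in WT (-0.30 ± 0.05, adjusted p = 0.0054).

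DNA replication genes were lower in 4 of 27 cases and higher in none, with a median log2 difference of -0.18 and 24 of 27 members below 0. CYCD1;1, a D-type cyclin gene of the entry into the cycle, had 1081, 1228 and 1265 normalized counts in ERF115OX, 1732, 1507 and 1658 in ERF114OX and 1043, 905 and 963 in WT (-0.45 ± 0.08, adjusted p = 0.0046). TSO2, a ribonucleotide reductase subunit gene, had 2806, 2514 and 2784 normalized counts in ERF115OX, 3223, 3447 and 3408 in ERF114OX and 2905, 2801 and 2611 in WT (-0.32 ± 0.06, adjusted p = 0.0064). These were called in every alternative, while the other called members, MCM10 and CDT1A, were not. CDT1A was also 1 of the few called genes whose libraries overlapped. The number called was 2 without ERF114OX 3, ERF115OX 2, ERF115OX 3, ERF115-SRDX 1 or WT 2 and 9 without ERF115OX 1. None of 24 mitosis genes was called (median -0.16), and of 286 ribosomal protein genes 1 was higher and 1 lower (median -0.09). Markers of the quiescent centre, the organising cells of the root stem cell niche, were called in none of 9 cases, with a mean log2 level of 8.4 ± 0.10 in ERF115OX and 8.59 ± 0.05 in ERF114OX (exact permutation p = 0.1, the smallest possible). Lists with no call by limma were also read by unadjusted p, edgeR and DESeq2. Over all 23375 genes tested, 5075 had an unadjusted p under 0.05, and the list shares were not tested against this. For photosynthesis, 0 of 30 genes had an unadjusted p under 0.05, edgeR called 0 and DESeq2 0. For lateral root formation, 3 of 15 genes had an unadjusted p under 0.05, edgeR called 1 and DESeq2 1. For mitochondrial stress, 0 of 13 genes had an unadjusted p under 0.05, edgeR called 0 and DESeq2 0. For the Casparian strip, 1 of 10 genes had an unadjusted p under 0.05, edgeR called 0 and DESeq2 0. For anthocyanins, 1 of 7 genes had an unadjusted p under 0.05, edgeR called 0 and DESeq2 0. For seed storage, 3 of 5 genes had an unadjusted p under 0.05, edgeR called 0 and DESeq2 0. For the root cap, 0 of 4 genes had an unadjusted p under 0.05, edgeR called 0 and DESeq2 0. For mitosis, 5 of 24 genes had an unadjusted p under 0.05, edgeR called 0 and DESeq2 1. For the quiescent centre, 3 of 9 genes had an unadjusted p under 0.05, edgeR called 0 and DESeq2 1. Wall-associated kinases had an unadjusted p under 0.05 in 2 of 12 genes, with 0 called by edgeR and 0 by DESeq2. ZAT zinc finger genes had it in 1 of 3, with 0 called by edgeR and 1 by DESeq2.

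Single genes with the largest differences lay mostly outside these lists. AT2G17490, annotated as a pseudogene on chromosome 2, had 980, 806 and 874 normalized counts in ERF115OX, 3.87, 8.47 and 9.34 in ERF114OX and 40.8, 24.4 and 39.8 in WT (6.82 ± 0.35, adjusted p = 1.0e-06), the largest positive difference after ERF115 itself. Among called genes without overlap that averaged at least 20 normalized counts in ERF115OX, the 12 largest positive differences were, beside those of ERF115, AT2G17490, CYP79F1, PDF1.4, EARLI1 and AT4G12495, those of VIM5, AT3G05770, AT3G02670, AT1G43590, AT5G51105 and AT5G54710, at log2 3.21 to 3.76. AT3G05770 had 172, 167 and 194 normalized counts in ERF115OX, 12.6, 10.6 and 18.7 in ERF114OX and 72.9, 44.9 and 70.7 in WT, and AT3G02670, a glycine-rich protein gene, had 65.3 ± 9.44 in ERF115OX, 6.01 ± 3.79 in ERF114OX and 297 ± 128 in WT.

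On the negative side, genes were ranked among those called without overlap that averaged at least 20 normalized counts in ERF114OX. Of the 5 largest differences in this ranking, 3 fell at a single locus on chromosome 1. MRD1, a gene first known for its loss of expression in a methionine-accumulating mutant, had 14.1, 26.4 and 17.56 normalized counts in ERF115OX, 2479, 2815 and 2825 in ERF114OX and 2009, 2075 and 1987 in WT (-7.10 ± 0.19, adjusted p = 5.0e-10). HEI10, a crossover gene of meiosis, had 143, 140 and 151 normalized counts in ERF115OX, 2633, 2931 and 2927 in ERF114OX and 2214, 2306 and 2126 in WT (-4.28 ± 0.09, adjusted p = 1.3e-10). The long noncoding RNA AT1G07887, annotated as antisense to MRD1, had 4.03, 10.2 and 6.20 normalized counts in ERF115OX, 2443, 2796 and 2796 in ERF114OX and 1965, 2021 and 1965 in WT. These 3 annotations overlap one another in TAIR10.1, and whether counting used the strand is not given in the sources used here, so that their counts may come from the same reads. At this locus ERF115OX is the line away from WT, while ERF114OX was 0.35 to 0.43 above WT on the log2 scale.

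Other negative differences lay at single genes. AT5G44925 had 8.06, 10.2 and 10.3 normalized counts in ERF115OX, 102, 113 and 102 in ERF114OX and 138, 190 and 136 in WT (-3.35 ± 0.24, adjusted p = 2.3e-05). DIR5, a dirigent protein gene whose promoter is printed above, had 13.1, 8.13 and 19.6 normalized counts in ERF115OX, 61.0, 61.4 and 46.7 in ERF114OX and 1.94, 5.85 and 5.98 in WT (-2.04 ± 0.44, adjusted p = 0.016; lost without ERF114OX 1 or 2 or ERF115OX 2, at up to 0.081). AT3G16670 had 125, 0 and 0 normalized counts in ERF115OX against 146, 390 and 473 in ERF114OX, so that 1 ERF115OX library came close to ERF114OX. Its log2 difference of -5.91 was larger than that of HEI10, but its call was lost in 17 of 24 alternatives, with edgeR and DESeq2 among them. AT5G59170, AT1G08943, AT1G24580, AT1G14490 and AT3G58060 completed the group, with differences of -2.38 to -1.56. The call of AT3G58060 was lost in 12 of 24 alternatives, and of 23 alternatives AT1G24580 lost its call in 5, AT5G59170 and AT1G14490 in 4 each and AT1G08943 in 1, mostly with a library of either line left out.

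Among genes with at least 1000 normalized counts in the higher line, the largest positive differences outside the genes above were SQE6, a squalene epoxidase gene of sterol synthesis, and AT1G78460, with 1097 ± 142 and 1744 ± 175 normalized counts in ERF115OX and 248 ± 67.4 and 462 ± 94.5 in ERF114OX. The SQE6 call was lost without any 1 of the 6 libraries or of the WT libraries (adjusted p up to 0.13). AT3G06365, an uncharacterised noncoding RNA, was the most abundant gene called and had 166545, 86010 and 106410 normalized counts in ERF115OX, 256111, 403795 and 291485 in ERF114OX and 117933, 117799 and 79018 in WT (-1.44 ± 0.23, adjusted p = 0.0037). AT1G33170, a methyltransferase gene with 778 ± 7.76 normalized counts in ERF115OX, 1336 ± 96.9 in ERF114OX and 654 ± 49.6 in WT, had 1 of the smallest p-values among the lower genes (-0.78 ± 0.07, adjusted p = 6.2e-05).

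Called genes were often neighbours on the chromosome. A gene next to it among those tested was called the same way for 297 of the 1116 higher genes (26.6%) and for 78 of the 497 lower genes (15.7%), while 9.26% and 4.18% of all genes tested had such a neighbour. Tandem copies and overlapping annotations, such as those at MRD1 and AT4G12490, are among them. No test was made of these shares.

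The WT mean was placed against both line means. Among genes called higher in ERF115OX, the WT mean lay below both lines in 14.7%, between them in 50.4% and above both in 34.9%. Among genes called lower, WT lay below both lines in 35.8%, between them in 42.9% and above both in 21.3%. Over all genes tested these shares were 39.1%, 19.8% and 41.1%. These shares describe the means and carry no test, and both differences from WT rest on the same 3 WT libraries. Genes were called by the gap between the lines, and a wider gap is more likely to hold the WT mean. The higher share of called genes with WT between the lines is therefore partly set by the calling. For 119 called genes all ERF115OX libraries lay above and all ERF114OX libraries below the whole WT range, and for 34 the order was reversed. Over all 23375 genes tested, called or not, 134 and 42 showed these orders, which by themselves separate the lines.

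**Figure D5:**
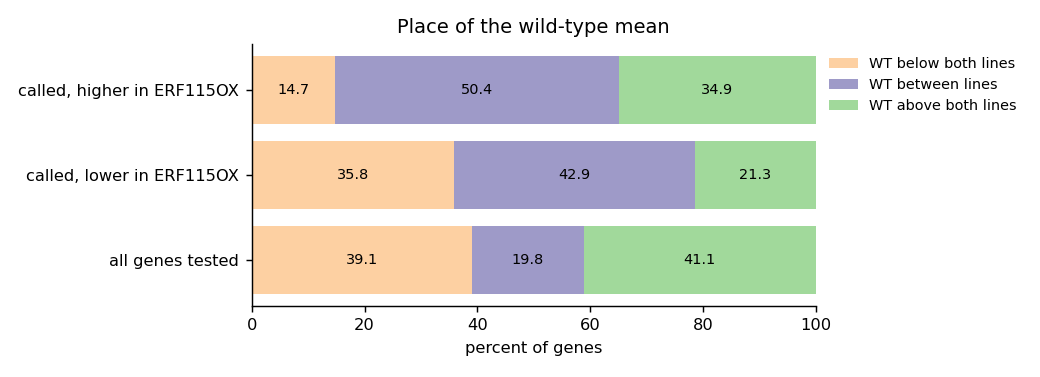
Stacked bars give the percent of genes whose WT mean log2 level lies below both lines, between them or above both, for the genes called higher and lower in ERF115OX and for all genes tested. WT lies between the lines in 50.4% and 42.9% of called genes and in 19.8% of all genes. Calling genes by the gap between the lines itself favours a WT mean between them.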

How the data were processed

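Poly(A) RNA of roots was sequenced for 4 genotypes with 3 libraries each. Reads were trimmed with Trimmomatic 0.39, aligned with HISAT2 2.2.1, sorted with SAMtools 1.11, counted with featureCounts (Subread 2.0.1) and normalized by DESeq2, as listed in the submitters' processing notes. Neither the build of the genome nor the use of strand in counting is stated in the labels. The deposited signal values are read counts per gene divided by 1 size factor per library, and whole reads were recovered from them with a tolerance of 1e-06.

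Values were tested as log2(normalized count + 1) with limma 3.58.1 in R 4.3.3, with a mean for each of the 4 genotypes, a mean-dependent prior and Benjamini-Hochberg adjustment over the 23375 genes that averaged 10 normalized counts or more in the 12 libraries. Genes with an adjusted p under 0.05 are called. Alternatives were edgeR 4.0.16 and DESeq2 1.42.0 on the recovered reads, other pseudocounts, filters and scalings, fewer samples, a replicate block, the photosynthetic level as a covariate and each library left out. The script was tested on simulated data.

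Genes were named by a rule: the overexpressed factors; the 12 largest differences in each direction without overlap and averaging 20 or more in the higher line; the 6 smallest p-values in each direction; 5 genes of each kind with the lines on opposite sides of WT; in each list with 3 or more calls the 3 smallest p-values, and in other lists any call; all group X ERF and phytosulfokine genes; and the 6 largest differences in each direction at 1000 normalized counts or more. Not all of these are described. The remaining members of the glucosinolate, auxin, cytokinin, iron, xylem, replication and triterpene lists were named after their values were seen. The same holds for AT4G12490, AT4G12500, IGMT3 and IGMT4. The members and lists were chosen with earlier results of these data known. Gene names and promoters came from RefSeq's annotation of TAIR10.1, matched by locus for all 37884 genes. The floor of 3 reads covers counting error only, while SDs and SEs describe the spread between libraries.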

Additional observations from a re-analysis of the deposited data

Results flagged for a closer look

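Some called genes that the naming rule or the text names had all ERF115OX libraries on one side of the whole WT range and all ERF114OX libraries on the other, so that the lines departed from WT in opposite directions. The log2 difference between the lines, given in brackets, was tested with limma, while the opposite position around WT was not tested. ERF115OX lay above and ERF114OX below WT for AT2G17490 (6.82), PDF1.4 (4.49), AT3G05770 (3.61), EARLI1 (3.26), PSK2 (2.82), SAUR22 (2.55), AZI1 (2.34), AT5G20820 (2.31), SQE6 (2.17), BCAT4 (1.95), AT5G64120 (1.68), PIN5 (1.68), HMA2 (1.66), CYP83A1 (1.62), IMS2 (1.62), TI1 (1.5), IPMI1 (1.35), AT5G64110 (1.3), WRKY60 (1.29), IMD1 (1.13), GSTU23 (1.04), WRKY48 (1.04), IAA26 (0.60), UGT87A2 (0.58), CRK2 (0.44), NIT1 (0.36), IGMT5 (0.34), CYP79B2 (0.29) and PAT1 (0.19). ERF115OX lay below and ERF114OX above WT for GA3OX2 (-0.68), AT3G17640 (-0.79), AT5G18735 (-1.17), HEI10 (-4.28), MRD1 (-7.10) and AT1G07887 (-8.50). AT5G18735 had 41.3, 20.3 and 28.9 normalized counts in ERF115OX, 65.8, 59.3 and 74.7 in ERF114OX and 52.5, 49.8 and 41.8 in WT. AT1G07887, MRD1 and HEI10 overlap in the annotation and may share reads. For SAUR22, SQE6, NIT1, CYP79B2, PAT1, AT3G17640 and AT5G18735 the call between the lines was itself lost with some library left out.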

How the results depend on the processing

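The direction of all 1613 calls held in each alternative that tested them, but their number did not. With each of the 12 libraries left out in turn, 600 to 2204 genes were called, 465 to 1463 higher and 135 to 741 lower in ERF115OX; where a line was left with 2 libraries, the spread was pooled over genotypes. Fitting only the lines gave 917 calls (739 higher, 178 lower), leaving out the ERF115-SRDX genotype gave 294 lower, DESeq2 gave 818 lower, and asking also for an absolute log2 difference of at least 1 gave 282 (249 higher, 33 lower). The other scalings, pseudocounts, filters and tools kept the counts within 1.5 times. Replicate numbers did not pair the libraries (correlations of same-numbered deviations -0.281, -0.096 and -0.119), and the replicate block gave 1490 calls (1077 higher, 413 lower). The genes whose direction turned were all uncalled. Over the main fit and all alternatives, the log2 difference ran from -0.022 to 0.33 for RAP2.6, from -0.027 to 0.56 for ABR1 and from -0.19 to 0.0043 for ERF112. It ran from -0.026 to 0.11 for PSK1, from -0.10 to 0.12 for PSK3 and from -0.087 to 0.039 for TPST. The direction turned with a library left out, and for TPST also with TMM scaling (0.0080) and edgeR (0.0056). The cause of these changes was not tested. Depth limits values under about 3 reads, such as CYP79F1 in ERF114OX.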
